A study of Mus musculus with 6 samples.

Results

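The genes described here encode the enzymes of glycogen synthesis and breakdown: Ugp2, Gyg, Gys1 and Gbe1 on the synthetic side, the phosphorylases Pygm, Pygb and Pygl, and the phosphorylase kinase subunits Phka1 and Phkb. They are 9 of 43430 gene IDs in a table of RNA-seq read counts, and all 9 were among the 13005 genes that passed the filter on low counts. The members were chosen by name as glycogen genes, with earlier results of the same comparison known, among them the difference of Gyg between the groups. Their differences between groups are therefore given as a description, with fitted values but no p-value, and they support nothing beyond themselves.

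The cells came from the lungs of C57BL/6J mice, all male and 9 to 11 weeks old, and were flow-sorted as fibroblasts that carry PDGFRA, a growth factor receptor. In the hypercapnia group 9 mice breathed 10% CO2 for 10 days at normal oxygen, and in the control group 9 mice were kept in room air. Each library holds the pooled cells of 3 mice, which gives 3 libraries of room air (M1, M2 and M3) and 3 of hypercapnia (M4, M5 and M6). The comparison asks what a long exposure to high CO2 does to transcript levels in these cells. Library totals ran from 8999780 to 10198336 counts. The gene of the sorted receptor, Pdgfra (2525 to 3701 CPM, read counts scaled to library size), and the collagen gene Col1a1 (4518 to 5455 CPM) were high in every library, and the 8 leukocyte markers summed to 17.9 to 62.6 CPM in room air and 39.2 to 77.6 CPM in hypercapnia, most of it Lyz2 and Cd14. In bulk libraries, fewer cells of a type and less RNA per cell cannot be told apart.

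Glycogen is a branched polymer of glucose that cells keep as a reserve. Ugp2 makes UDP-glucose, glycogenin (Gyg) attaches the first glucose units to itself, glycogen synthase (Gys1) lengthens the chain and the branching enzyme (Gbe1) adds side branches. Glycogen phosphorylase releases glucose 1-phosphate from the chain ends, and exists as a muscle (Pygm), a brain (Pygb) and a liver form (Pygl). Phosphorylase kinase, an assembly of alpha (Phka1 or Phka2), beta (Phkb), gamma (Phkg1 or Phkg2) and calmodulin subunits, switches phosphorylase on. In the developing lung, glycogen is best known as a store of the epithelium that makes surfactant.

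In hypercapnia the glycogenin gene Gyg fell to little over 50% of its room air level, while the genes for the enzymes that act after it, Gys1 and Gbe1, had higher values in every hypercapnia library than in any room air library. The muscle phosphorylase gene Pygm had lower values in every hypercapnia library, and the brain and liver forms, Ugp2 and both kinase subunits overlapped between the groups. With an adjusted p under 0.05 as the call, edgeR's quasi-likelihood fit over all genes called 1 of the 9 members, Gyg, where 1.22% of all tested genes were called. For 4 of the 9 (2 higher and 2 lower) every library of one group lay above every library of the other, as was so for 18.0% of all tested genes. Since the members were proposed with this comparison known, nothing is read from either count. The median log2 fold change was 0.07 over the members and 0.01 over all tested genes.

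**Figure D1:**
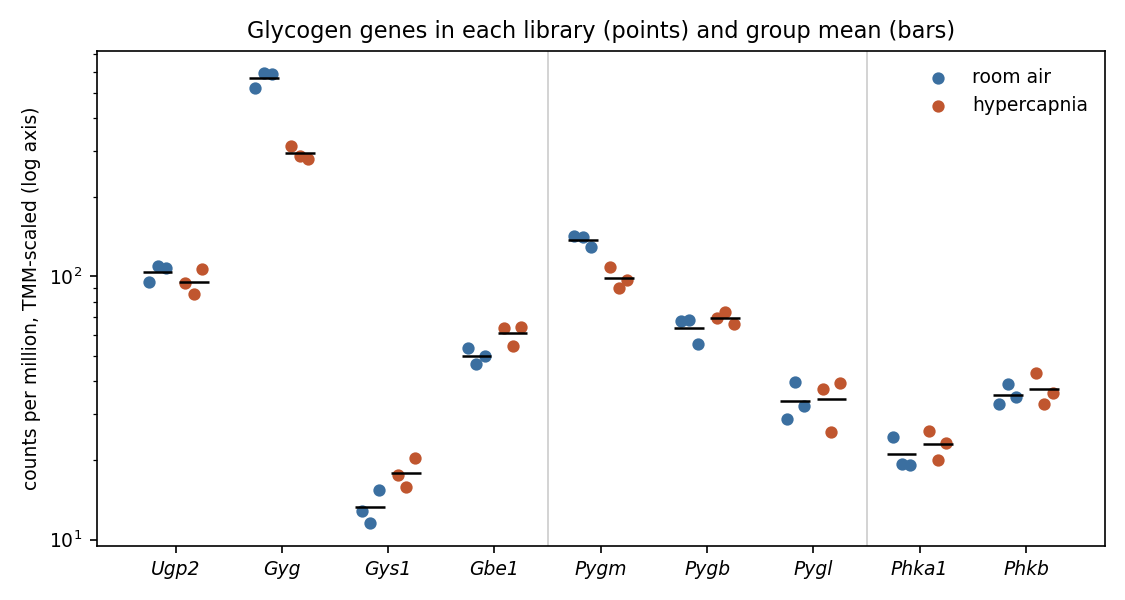
Level of each member in each library, in TMM-scaled CPM on a log axis; points are libraries, black bars the means of 3, and vertical lines part the synthetic genes, the phosphorylases and the kinase subunits. Gyg lies between 522 and 592 in room air and between 280.5 and 313 in hypercapnia.

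Gyg, ENSMUSG00000019528, lies on the minus strand of chromosome 3 from 20122084 to 20155317 (mm10), and none of its exonic bases are shared with another gene model. It stood at 522, 592 and 588 CPM in the room air libraries (M1 to M3 in order), and at 313, 287 and 280.5 CPM under hypercapnia (M4 to M6). The lowest room air library thus lay well above the highest hypercapnia library, and the libraries of each group lay close together. The group means were 567 ± 39.6 and 293 ± 17.5 CPM (SD, n = 3), a ratio of 0.517 and a fitted log2 fold change of -0.95 ± 0.11 (SE). With 1 of the 6 libraries left out, the log2 fold change of Gyg ran from -1.01 to -0.92. It was called each time, but without M2, M5 or M6 it came much closer to the threshold. As Gyg was chosen with its difference known, these calls are a description only.

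The promoter windows of the members, 300 bases from 250 before to 50 after each RefSeq start (RefSeq, GRCm38.p6), were searched on both strands for 6 short motifs, chosen after the values were seen. All 9 members matched, with 10 windows. The E-box letters CACGTG stood in 1 of them, that of Gyg, and in 7.15% of all 32851 windows. The letters ACGTG, which read CACGT from the other strand, are the core of the hypoxia response element and part of every such E-box. They stood in 5 of the 10 windows and in 19.6% of all. The matches are printed 5′ to 3′ on the strand of the gene with the matched letters in capitals, so that the full E-box of Gyg can be set beside the shorter matches of Pygm, Pygb, Pygl and Ugp2:
Gyg, chr3:20155091-20155120, minus strand: agcctgcgcggcCACGTGacggccgctata
Pygm, chr19:6384335-6384363, plus strand: ccaagaccctccCACGTccggggaggcgt
Pygb, chr2:150786621-150786649, plus strand: ccctcgagcgtcCACGTtctcttcccggc
Pygl, chr12:70227798-70227826, minus strand: cctttgcgcactACGTGacctggacgttc
Ugp2, chr11:21371420-21371448, minus strand: aagcagagacagACGTGcttggcaccgtg
The E-box of Gyg begins 8 bases after its RefSeq start, and the match of Pygm begins 61 bases before its start. The D-box letters TTATGTAA and TTACGTAA and the cyclic AMP response element TGACGTCA stood in 0 of the 10 windows, and in 0.938%, 0.119% and 1.79% of all. The ROR half-site AGGTCA stood in the window of Pygl alone among the members, and in 16.3% of all. A match is a run of letters and no measured binding site.

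Gys1, the synthase of muscle and most other tissues, was the member with the fewest reads. Its values were 12.8, 11.5 and 15.4 CPM in room air and 17.6, 15.8 and 20.4 CPM in hypercapnia. The highest room air library, M3, lay just below the lowest hypercapnia library, M5. The log2 fold change was 0.44 ± 0.21 and the gene was not called. Of its exonic bases, 6.47% are shared with Ruvbl2 on the other strand, and reads there cannot be assigned without the strand setting. Gys2, the liver synthase, had 0 counts in all 6 libraries, where 3 counts would correspond to 0.281 to 0.353 CPM.

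Gbe1, the branching enzyme, stood at 53.2, 46.5 and 49.8 CPM in room air and at 63.7, 54.6 and 64.0 CPM in hypercapnia. M1 and M5 nearly touched, and the other hypercapnia libraries were clearly above room air. The log2 fold change was 0.29 ± 0.12, without a call. Ugp2 stood at 95.7, 109 and 108 CPM and at 94.8, 85.9 and 106 CPM, so the groups overlapped (-0.12 ± 0.12).

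Levels can be compared between genes only per length, here as CPM per kilobase of exon. On that scale Gyg was the most abundant member in every library, at 242 ± 16.9 in room air and 125 ± 7.45 in hypercapnia. Over the 6 libraries pooled, the order below Gyg was Pygm (mean 36.7), Ugp2 (32.6), Pygb (13.9), Gbe1 (10.3), Phkb (4.92), Pygl (4.91), Phka1 (3.52) and Gys1 (3.26). The ranges of the libraries overlapped between Pygm and Ugp2, between Pygb and Gbe1, and between all neighbours from Phkb to Gys1. Within the groups such neighbours also changed places: Ugp2 (31.2) was above Pygm (30.7) and Gys1 (3.75) above Phka1 (3.68) in the hypercapnia means, and Pygl (4.86) above Phkb (4.80) in the room air means. The ranges did not overlap between Gyg and Pygm, Ugp2 and Pygb, or Gbe1 and Phkb.

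The primer gene was thus far more abundant than the elongating synthase in both groups. Gyg exceeded Gys1 per length by a factor of 83.0, 105 and 78.2 in the room air libraries and of 36.3, 37.0 and 28.1 in hypercapnia. The factor of Gyg over Gbe1 was 26.1 ± 3.44 and 11.1 ± 0.993 (SD, n = 3). Gbe1 over Gys1 was 3.40 ± 0.44 and 3.04 ± 0.216, with overlapping libraries. The ratio of the priming to the elongating gene did not overlap between the groups. That follows from Gyg being lower and Gys1 higher in every hypercapnia library, and is no further result.

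Pygm, the phosphorylase named for muscle, ENSMUSG00000032648 on chromosome 19 from 6384399 to 6398459, was the most abundant of the 3 phosphorylase genes in these lung cells. It stood at 143, 141 and 129 CPM in room air and at 109, 90.8 and 96.6 CPM in hypercapnia. Every hypercapnia library was below every room air library. The log2 fold change was -0.48 ± 0.11, and the gene was not called by the quasi-likelihood fit. It was called, with the same sign, with robust dispersion, by DESeq2 and without the filter on low counts, settings that also called 255, 435 and 756 genes in all in place of 159.

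The markers of heart and skeletal muscle were at or near 0 beside it. Of 12 such genes 1 passed the filter, Ckm and Myh4 had no count in any library, and the 12 together summed to 2.83 to 7.54 CPM in room air and 4.78 to 9.92 CPM in hypercapnia. Smooth muscle and pericyte markers summed to 306 to 360 CPM in room air and 232 to 321 CPM in hypercapnia. Their mean level was 3.12 to 3.45 log2 CPM in room air and 2.97 to 3.09 in hypercapnia. This mean was thus lower in every hypercapnia library, as Pygm was, but only narrowly, while the summed level overlapped between the groups. It includes Cnn1, Actg2 and Cox4i2, which did not pass the filter and reached at most 0.741, 1.99 and 1.87 CPM. Of the 7 markers that were tested, 5 had a negative log2 fold change, and edgeR and DESeq2 called 0. In the quasi-likelihood fit 2 were lower at an unadjusted p under 0.05, where 5.51% of all tested genes were. The part of these markers in the values of Pygm was not tested.

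Pygb stood at 67.5, 68.3 and 55.5 CPM in room air and at 69.3, 73.5 and 66.2 CPM in hypercapnia (0.13 ± 0.12). Pygl ran from 28.6 to 39.9 CPM and from 25.5 to 39.4 CPM (0.02 ± 0.20). Both overlapped between the groups. Of the summed per-length phosphorylase level, Pygm made up 70.9%, 68.7% and 71.3% in room air and 63.0%, 59.8% and 60.6% in hypercapnia. The share of Pygb was 21.7% ± 1.09 and 29.0% ± 2.94 (SD, n = 3), without overlap, and that of Pygl 7.99% ± 1.23 and 9.84% ± 1.86, with overlap. Shares of a sum depend on each other, so a lower level of Pygm raises the share of Pygb, whose own level overlapped. The sum itself was 60.9 ± 3.98 and 50.1 ± 3.24 CPM per kilobase. With the longest transcript as the length of each gene the share of Pygm was 64.0% and 54.5%, and its order relative to Pygb and Pygl was the same.

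**Figure D2:**
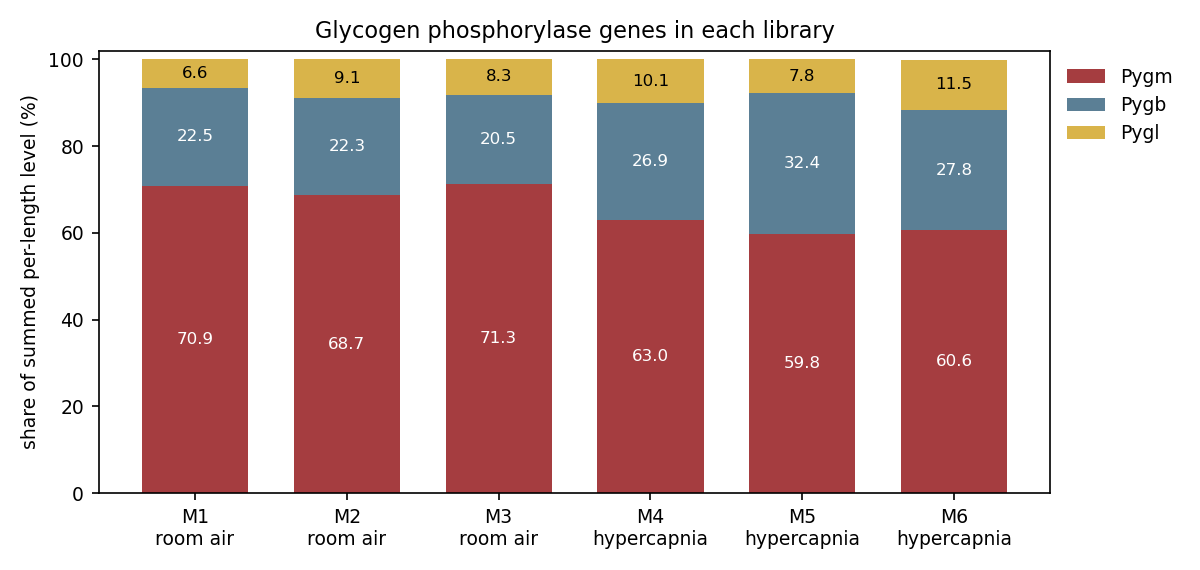
Share of each phosphorylase gene in the summed per-length level (CPM per kilobase of exon, in percent) for each library; each bar is 1 library and adds to 100 but for rounding. Pygm takes 68.7% to 71.3% in room air and 59.8% to 63.0% in hypercapnia.

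The members of phosphorylase kinase were low and overlapped between the groups. Phka1, the alpha subunit of muscle on chromosome X, stood at 24.5, 19.4 and 19.3 CPM in room air and at 25.8, 20.0 and 23.2 CPM in hypercapnia (0.13 ± 0.18). Phkb, the shared beta subunit, ran from 32.6 to 39.1 CPM and from 32.8 to 43.1 CPM (0.07 ± 0.15). The libraries of the groups were interleaved for both genes. Outside the list, the liver alpha subunit Phka2 was above Phka1 per length in every library. Phka2 stood at 5.97 ± 1.40 and 5.26 ± 0.460 CPM per kilobase, and Phka1 at 3.37 ± 0.476 and 3.68 ± 0.463. Of the catalytic gamma subunits, Phkg2 stood at 13.2 ± 2.96 and 15.0 ± 3.67 CPM, with 21.9% of its exonic bases shared with Ccdc189 on the other strand. Phkg1, the gamma subunit of muscle, had 0 to 19 counts per library and did not pass the filter.

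Another 55 genes that feed, regulate or branch off the pathway were listed by role. Of these, 48 passed the filter, 0 rose, 1 fell and 47 were not called, where 1.22% of all tested genes were called. DESeq2 called 1 of the 48, where it called 435 of all 13005 tested genes. In the quasi-likelihood fit 6 of the 48 had an unadjusted p under 0.05 (3 higher and 3 lower). Over all tested genes 6.54% were higher and 5.51% lower at that threshold, so the shares lay near the background. The median log2 fold change of the 48 was -0.02. The one that fell was Pgm5, a relative of phosphoglucomutase that lacks its activity and sits at cell-matrix and cell-cell junctions. It stood at 154, 137 and 111 CPM in room air and at 84.7, 66.4 and 80.4 CPM in hypercapnia (-0.79 ± 0.15, edgeR adjusted p = 0.0317). The call of Pgm5 was lost without M1 (adjusted p = 0.0782), M2 (0.175), M5 (0.164) or M6 (0.106), with log2 fold changes from -0.83 to -0.68 there.

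Pgm1, the active mutase that links glucose 6-phosphate with glucose 1-phosphate, had higher values in every hypercapnia library. They were 9.78, 11.9 and 7.52 CPM in room air and 21.05, 14.5 and 14.3 CPM in hypercapnia (0.77 ± 0.26, edgeR adjusted p = 0.219). Of the exonic bases of Pgm1, 13.6% are shared with Itgb3bp on the other strand. Pgm2l1, which makes glucose 1,6-bisphosphate, had a log2 fold change of 0.36 ± 0.16, also without overlap or a call. Of the 9 pathway genes whose groups did not overlap, 5 were higher and 4 lower, and 18.0% of all tested genes did not overlap.

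Breakdown outside the phosphorylases was read from a short list of genes, of which edgeR and DESeq2 called 0, and 0 had an unadjusted p under 0.05. Gaa, the lysosomal acid glucosidase that is lost in Pompe disease, stood at 362 ± 20.5 and 333 ± 30.7 CPM (-0.12 ± 0.11). Stbd1, which ties glycogen to membranes, stood at 91.7 ± 24.4 and 114 ± 12.8 CPM (0.32 ± 0.18). Per length Gaa (75.6 ± 4.28 in room air) was above every member but Gyg.

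Of the 9 tested genes of protein phosphatase 1 and its glycogen-targeting subunits, edgeR and DESeq2 called 0, and 2 had an unadjusted p under 0.05 by either (1 higher and 1 lower, beside 6.54% and 5.51% of all tested genes by edgeR). Ppp1r3a, the muscle targeting subunit, ran from 2.44 to 10.2 CPM in room air and from 7.01 to 19.2 CPM in hypercapnia (1.18 ± 0.49, edgeR adjusted p = 0.354). Adjusted for the level of endothelial markers, its log2 fold change was 0.13 ± 0.45. Ppp1cb, a catalytic subunit, stood at 261 ± 6.63 and 223 ± 9.07 CPM (-0.23 ± 0.10, edgeR adjusted p = 0.406). It shares 17.5% of its exonic bases with Gm43312 on the same strand. Among 10 kinases that act on synthase or phosphorylase kinase, the smallest p belonged to the AMPK subunit Prkaa1 (-0.29 ± 0.12, edgeR adjusted p = 0.373). Ugdh, which turns UDP-glucose towards glycosaminoglycans, had a log2 fold change of -0.23 ± 0.10 and the galactose enzyme Galm one of 0.70 ± 0.28, both without a call.

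**Figure D3:**
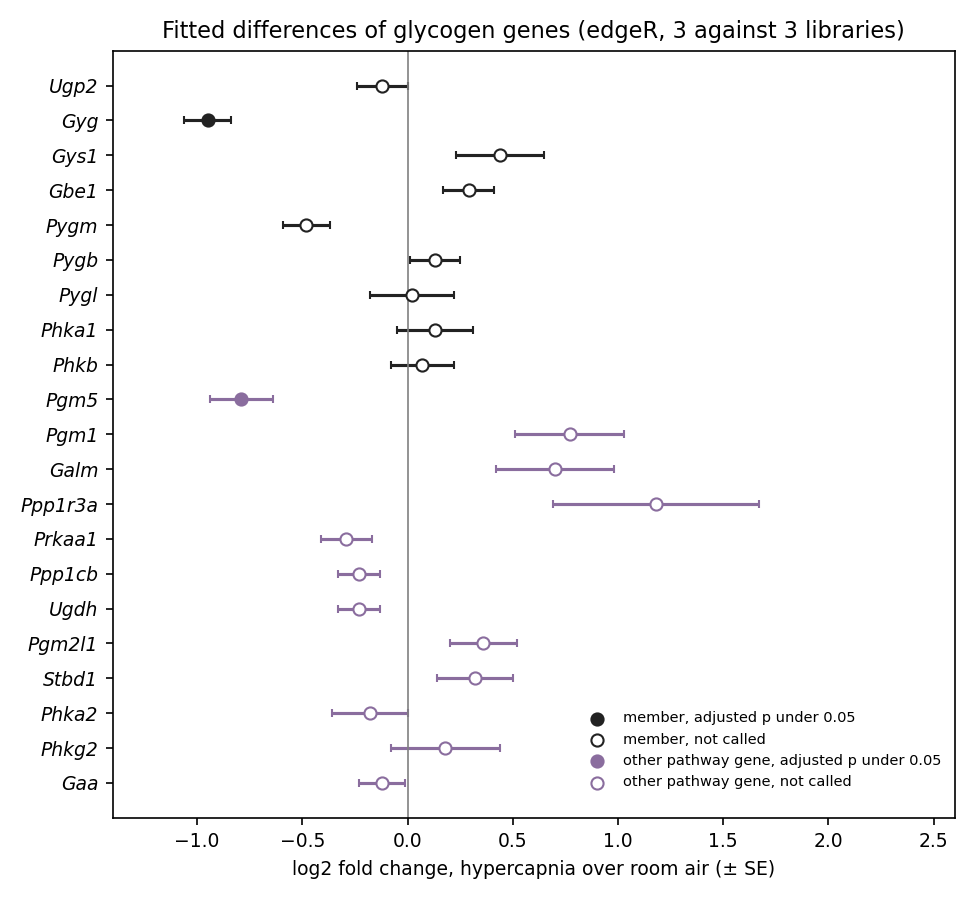
Fitted log2 fold change of hypercapnia over room air, with its SE, for the 9 members and for the other pathway genes named in the text that passed the filter; filled points have an adjusted p under 0.05. Gyg (-0.95) and Pgm5 (-0.79) are the filled points.

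The levels of markers of other cell types and of fibroblast subtypes also differed between the groups. Of 14 genes that mark alveolar fibroblasts, which support the gas exchange surface, edgeR called 6 lower and 0 higher. Over all tested genes it called 1.22%. The log2 fold change was below 0 for 13 of the 14 markers, with a median of -0.44. Their mean level was 9.61 to 9.65 log2 CPM in room air and 9.14 to 9.24 in hypercapnia, and their summed level 27620 to 29430 and 21430 to 24550 CPM. On the log2 scale, Gyg minus that mean was -0.62, -0.40 and -0.45 in the room air libraries and -0.89, -0.97 and -1.11 under hypercapnia. Gyg stood lower against this mean in every hypercapnia library, with a difference of -0.50 between the group means, where the marker mean itself differed by -0.45. The markers differed among themselves: Col13a1 (-0.89), Lpl (-0.81) and Scube2 (-0.71) were the lowest and came near the -0.95 of Gyg, while Inmt (-0.14), Ces1d (-0.05) and Mettl7a1 (0.11) were the highest. The marker level separated the groups almost completely (correlation with the group -0.989, n = 6), so its part in the values of Gyg and Pygm cannot be told apart from the exposure. With this level as a covariate, the log2 fold change of Gyg was -1.20 ± 0.78 and that of Pygm -0.33 ± 0.81, neither was called, and edgeR called 0 of 13005 genes (422 at an unadjusted p under 0.05).

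**Figure D4:**
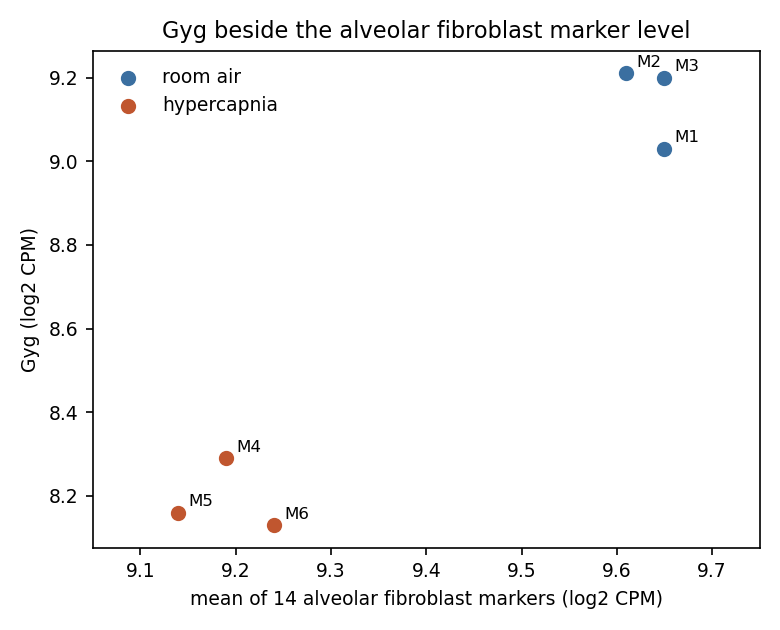
Gyg against the mean of 14 alveolar fibroblast markers, both in log2 CPM, with 1 labelled point per library. The groups are apart on both axes, and within a group the marker mean varies by at most 0.10.

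The endothelial markers had a mean level of 4.99 to 6.85 log2 CPM in room air and 6.83 to 7.53 in hypercapnia, and all 18 had a positive log2 fold change, 11 of them at an unadjusted p under 0.05, with 0 called by edgeR and 2 by DESeq2 (summed level 791 to 3018 and 2945 to 4935 CPM). With this level as a covariate Gyg had a log2 fold change of -0.92 and was called. That call is a description only, since Gyg was chosen with its difference known. Pygm had one of -0.58, Gys1 of 0.65 and Gbe1 of 0.28, each without a call. The endothelial level was itself correlated with the group (0.651, n = 6), so this fit cannot separate its part from the exposure. Adventitial fibroblast markers had a positive log2 fold change in 10 of 11 cases, 6 of them at an unadjusted p under 0.05, with 1 called by edgeR and 4 by DESeq2. Their mean level was 6.82 to 7.25 log2 CPM in room air and 7.39 to 7.69 in hypercapnia (summed level 2892 to 3221 and 3128 to 4643 CPM). The airway epithelium markers were lower, as Gyg and Pygm were, with a negative log2 fold change for 6 of 6 (median -0.68), 3 at an unadjusted p under 0.05 and 0 called by edgeR or DESeq2. They summed to 328 to 555 CPM in room air and 146 to 354 CPM in hypercapnia. Over all tested genes, 6.54% were higher and 5.51% lower at an unadjusted p under 0.05 in the quasi-likelihood fit. That fit called 1.22% of them, and DESeq2 called 435 of 13005. Of the alveolar type 2 markers 6 of 7 had a positive log2 fold change (median 0.40, summed level 120 to 279 and 196 to 359 CPM), as had the 3 tested mesothelium markers (median 0.90, summed level 10.7 to 21.6 and 8.64 to 54.6 CPM). At an unadjusted p under 0.05 in the quasi-likelihood fit there were 1 of these 7 and 0 of these 3. Both edgeR and DESeq2 called 0 in either list. The part of the adventitial, airway, alveolar type 2 and mesothelium markers in the values of the members was not tested.

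The genes whose values over the 6 libraries were most like those of Gyg, among 10717 named genes averaging 5 CPM or more, were Nrcam (Pearson r = 0.9997), Klhl13 (0.9972), Vcam1 (0.9964), Igfbp3 (0.9951) and Npas2 (0.9943). All 5 share a lower level in hypercapnia, and the correlations are given as a description over 6 libraries. Within the 3 libraries of a group r was 0.98 or more for Nrcam and Klhl13 in either group and no lower than 0.74 for the others. The genes were picked by their likeness over these same libraries, so the values within groups add no separate support. Nrcam, an adhesion molecule, stood at 138 ± 8.01 and 85.8 ± 3.58 CPM (SD, n = 3), and Vcam1, an adhesion molecule for leukocytes, at 616 ± 30.4 and 416 ± 16.8 CPM. Igfbp3, a carrier of insulin-like growth factors, stood at 1161 ± 94.2 and 326 ± 59.1 CPM. Npas2, an E-box-binding activator of the circadian clock, stood at 13.1 ± 4.46 CPM in room air and at 0.107 ± 0.114 CPM in hypercapnia, under the level of 3 counts.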

How the data were processed

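The authors deposited raw counts per Ensembl gene for 6 libraries. The submitters' processing notes name TopHat2 2.1.0 and HTSeq with mm10, after bcl2fastq 2.17.1.14 and FastQC. For annotation release, strand setting and filters: not given in the sources used here. Column names give the group but not the sample, so libraries carry the columns' names. GENCODE M21 (mm10) named 42546 of 43430 IDs. IDs without a name held at most 0.0958% of a library.

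Counts were fitted with edgeR 4.0.16 (R 4.3.3): TMM factors (0.943 to 1.05), filterByExpr with a minimum count of 10, and a two-sided quasi-likelihood F-test on 3 against 3 libraries with Benjamini-Hochberg adjustment over 13005 genes. The main edgeR fit, but no other step, was tested on simulated counts. The SE is the log2 fold change over the root of F. Log2 CPM used a prior count of 2. Members, lists and tests were chosen with earlier results of these data known. Named pathway genes are those called, the next 8 by p, and Gys2, Phka2, Phkg1, Phkg2 and Gaa (some listed genes are not reported here by name); another list gives the 5 genes most like Gyg. DESeq2 1.42.0 and limma-voom (limma 3.58.1) were alternatives. At 95% identity over 150 bases, no member shared sequence with another gene except Gys1 with Ruvbl2. The p-values measure the spread between pools of mice.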

Additional observations from a re-analysis of the deposited data

How the results depend on the processing

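Across 15 alternatives Gyg, Gys1, Gbe1 and Pygm kept the sign of their log2 fold change, while Pygl changed sign in 4, Pygb in 2, and Ugp2, Phka1 and Phkb in 1 each. Members called numbered 1 in the fit as reported and 2 (Gyg and Pygm) without the low-count filter, with DESeq2 and with robust dispersion. Over all genes, 159 calls became 756, 435 and 255 in those 3 settings, and 24 to 148 with 1 library left out (24 without M2, 27 without M5, 42 without M6). Calls among the other pathway genes numbered 2 without the filter (Ppp1r3a joined Pgm5, at 1.19), and 0 to 1 with 1 library left out.

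With the alveolar marker level as a covariate, which nearly duplicates the group, calls fell to 0 among all genes, members and pathway genes. At an unadjusted p under 0.05 there were 422 genes, 0 members and 0 pathway genes by that edgeR fit. DESeq2 was not run with the covariate. In that fit Gys1 moved from 0.44 to 2.32 ± 1.30 and Gbe1 from 0.29 to 1.32 ± 0.81, neither of them called. Pgm5 was at -0.06, no longer called. Signs turned there for Pgm1 (-0.34), Galm (-2.50), Ppp1r3a (-5.82), Prkaa1 (0.38), Ugdh (0.21), Pgm2l1 (-0.62), Stbd1 (-1.82) and Phka2 (0.91), with SEs of 0.72 to 2.97. Phka2 also turned with the endothelial covariate (0.15), which moved Ppp1r3a from 1.18 to 0.13, Stbd1 from 0.32 to 0.06, Pgm2l1 from 0.36 to 0.17, Galm from 0.70 to 0.36 and Pgm1 from 0.77 to 0.41. With 1 library left out, Phka2 ran from -0.31 to 0.02, Phkg2 from -0.02 to 0.34 and Stbd1 from 0.16 to 0.54. The cause was not tested.

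With the longest transcript as length, the share of Pygm was 64.0% in room air and 54.5% in hypercapnia, and that of Pygl 14.2% and 17.1%. Then 5 of the 9 members kept their rank, Gyg to Gbe1 among them. No paired analysis was possible because the columns carry no number shared between the groups.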
